A study of Mus musculus with 12 samples.

Results

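The nuclear-encoded subunits of the mitochondrial respiratory chain and of ATP synthase were described in the prefrontal cortex of adult mice exposed to cocaine or saline as adolescents. The members were the protein-coding genes whose names begin with Ndufa, Ndufb, Ndufc, Ndufs or Ndufv and a digit, are Sdha to Sdhd, or begin with Uqcr, Atp5 or Cox4 to Cox8. The assembly factors named Ndufaf and the subunits encoded in mitochondrial DNA were left out by that rule. It found 83 of the 28842 genes of the table. Assigned by gene name, 37 were of complex I, 4 of complex II, 8 of complex III, 17 of complex IV and 17 of complex V. Of these, 80 had a mean level of at least 1 FPKM (a level in which reads are scaled to gene length and to the library's total) and entered the test. Cox6b2, Cox7b2 and Cox8b were below that level.

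RNA was sequenced from 12 libraries of prefrontal cortex, 6 of the cocaine group and 6 of the saline group. All came from male C57BL/6J mice labelled as wild type. The cocaine group was given 15 mg/kg cocaine between postnatal days 28 and 42, and the saline group was given saline over those days. Both groups then had a place preference pre-test on day 75, were trained on days 76 and 77 with 1 mg/kg cocaine, and were tested on day 78. The groups thus differ by label in the adolescent exposure, in mice that all had cocaine again as adults. A lasting effect of that exposure and a changed response to the adult cocaine cannot be told apart. The brain was collected within 30 to 60 min of the day 78 test. The labels do not say that each library is a separate mouse, so a p-value measures the spread between these libraries.

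The libraries held 16.7 to 19.9 M reads, and transcripts of mitochondrial DNA took 3.24% to 5.43% of them. All 6 markers of cortical excitatory neurons on the list used here passed the level filter. The labels also name a mesenchymal cell line, and of the 6 markers listed for such cells only Col1a2, at 1.10 FPKM, and Thy1, which neurons also express, passed the filter. In bulk tissue, fewer cells of a type and less RNA per cell cannot be told apart.

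Complexes I and II pass electrons from NADH and from succinate to ubiquinone, complex III passes them on to cytochrome c, and complex IV passes them to oxygen. Complexes I, III and IV pump protons while doing so, and complex V, the ATP synthase, makes ATP as the protons flow back. In the brain, most ATP for ion pumping and synaptic transmission comes from this pathway. Complex II is encoded wholly in the nucleus, whereas the other complexes also contain subunits made inside the mitochondrion.

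Nuclear genes of the chain are spread over the genome, here over 19 chromosomes, and their promoters are known for sites of the factors NRF1, GABP (which binds an ETS motif), YY1 and SP1. RefSeq promoters of build GRCm38.p6, running from 250 bases before to 50 after the start, were found for 66 of the 83 members. The letters GCGCANGCGC (NRF1, N being any base) stood in 17 of these members, 25.8%, against 5.19% of all 27025 genes in the table. The letters CCGGAAG (ETS) stood in 16 members, 24.2%, against 9.93% of all genes, and AANATGGC (YY1) also stood in 16 members, 24.2%, against 6.96%. The letters GGGCGG (SP1) stood in 26 members, 39.4%, against 38.2% of all genes. Both strands were searched and the 4 motifs were counted apart, so a base could belong to more than 1 of them, as where CCGGAAG runs into AANATGGC. NRF1 or ETS letters stood in 29 of the 66.

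The following 5 stretches show 1 such promoter per complex. Each runs from 250 to 51 bases before the start, 5′ to 3′ along the gene's own strand, which is minus for all 5. Of the stretches considered in a complex, the one with the most whole NRF1 and ETS matches was taken, ties going to the higher level in FPKM. Over the full window other members can hold as many or more, as Uqcrc1 does with 2 NRF1 matches in complex III. Capitals mark the NRF1 or ETS letters that lie whole within the stretch. The positions are chr16:37654419-37654618 for Ndufb4 (complex I), chr13:74350291-74350490 for Sdha (complex II), chr10:80406872-80407071 for Uqcr11 (complex III), chr5:115349009-115349208 for Cox6a1 (complex IV) and chr11:115419970-115420169 for Atp5h (complex V).
Ndufb4: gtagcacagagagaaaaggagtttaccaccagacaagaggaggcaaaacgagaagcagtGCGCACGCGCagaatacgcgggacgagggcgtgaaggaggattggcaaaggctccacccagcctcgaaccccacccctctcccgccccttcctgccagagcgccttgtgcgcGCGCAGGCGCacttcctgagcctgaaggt
Sdha: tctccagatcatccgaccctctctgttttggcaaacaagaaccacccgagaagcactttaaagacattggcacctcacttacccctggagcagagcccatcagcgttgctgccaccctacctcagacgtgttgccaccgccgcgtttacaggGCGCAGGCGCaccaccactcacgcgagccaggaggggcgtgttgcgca
Uqcr11: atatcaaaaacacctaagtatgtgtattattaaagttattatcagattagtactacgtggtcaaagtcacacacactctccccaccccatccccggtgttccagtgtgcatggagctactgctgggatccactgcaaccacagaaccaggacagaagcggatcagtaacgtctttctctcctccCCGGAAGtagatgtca
Cox6a1: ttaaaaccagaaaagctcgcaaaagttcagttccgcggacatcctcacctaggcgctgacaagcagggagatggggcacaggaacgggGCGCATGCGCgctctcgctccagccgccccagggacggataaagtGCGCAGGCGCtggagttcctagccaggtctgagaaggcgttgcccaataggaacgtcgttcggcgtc
Atp5h: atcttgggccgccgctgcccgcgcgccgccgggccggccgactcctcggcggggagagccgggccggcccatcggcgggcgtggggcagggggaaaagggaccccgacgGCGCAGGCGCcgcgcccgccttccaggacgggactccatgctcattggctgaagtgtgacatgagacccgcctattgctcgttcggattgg
Ndufb4 and Cox6a1 each showed 2 NRF1 matches, Sdha and Atp5h showed 1, and Uqcr11 showed 1 ETS match. A match is a run of letters, and binding was not measured.

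Levels per length ran from under 1 FPKM in the scarcest genes to 739 FPKM in the most abundant. Cox8a, a small transmembrane subunit of complex IV, was highest, at 740 ± 142 FPKM in cocaine and 738 ± 169 FPKM in saline libraries (SD, n = 6 each). Cox6a1, another complex IV subunit, followed with a mean of 599 FPKM over all libraries, then Cox4i1 with 343. Next were the ATP synthase subunits Atp5a1 (alpha) with 278 and Atp5b (beta) with 240. Cox7b2 was lowest, at 0.279 ± 0.129 FPKM in cocaine and 0.434 ± 0.359 FPKM in saline libraries. The median level of the tested members was 58.5 FPKM in complex I, 60.2 in complex II, 86.8 in complex III, 105 in complex IV and 57.3 in complex V. Complex IV had the widest range, 1.59 to 739 FPKM, beside 23.3 to 95.2 FPKM in complex II and 59.5 to 168 FPKM in complex III. The order depends on the deposited gene lengths: levels per length and read counts over the 83 members had a Spearman correlation of 0.684, and 5 of the top 10 genes were shared. Ndufb2 shows the effect, since its 5628 annotated exon bases against a coding length of 315 bases give a level of 3.15 FPKM.

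**Figure D1:**
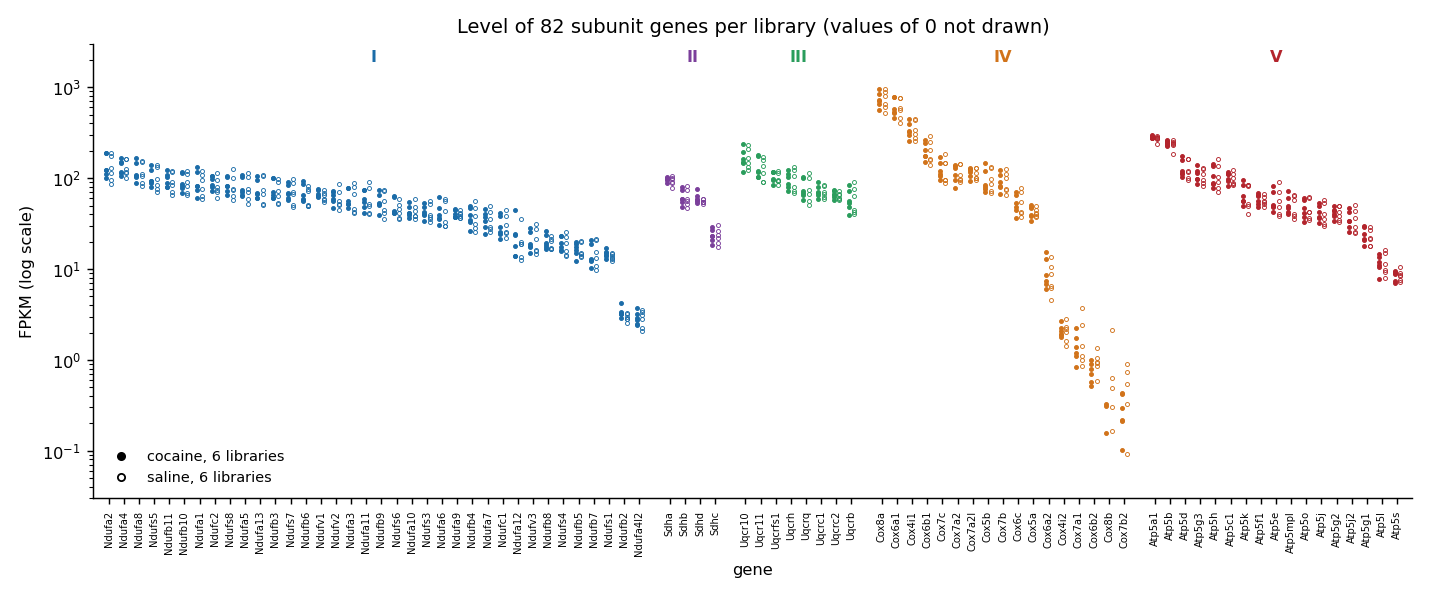
Level of 82 of the 83 subunit genes in FPKM (log axis), by complex from I to V and ordered by mean level. Filled points are the 6 cocaine libraries and open points the 6 saline libraries; values of 0 are not drawn, and in every gene the groups overlap.

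Several subunits can be made from alternative genes, and in complex IV the abundant and scarce forms lay far apart. Cox4i1, the general form of subunit 4, averaged 342 ± 68.5 FPKM in cocaine and 344 ± 81.0 FPKM in saline libraries, whereas Cox4i2, known as the lung form, averaged 2.11 ± 0.331 FPKM in cocaine and 2.06 ± 0.513 FPKM in saline libraries (SD, n = 6 each). Cox6a1 averaged 610 ± 139 FPKM in cocaine and 588 ± 148 FPKM in saline libraries. Its heart and muscle counterpart Cox6a2 averaged 9.53 ± 3.80 FPKM in cocaine and 8.30 ± 3.25 FPKM in saline libraries. The muscle form Cox7a1 had a mean of 1.59 FPKM beside 113 FPKM for its liver-type relative Cox7a2 and 113 FPKM for Cox7a2l, another relative. The testis forms Cox6b2 and Cox7b2 had means of 0.847 and 0.356 FPKM beside 201 FPKM for Cox6b1 and 92.0 FPKM for Cox7b.

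Cox8b, the muscle counterpart of Cox8a, was almost absent. Its normalised read counts were 0, 2.02, 2.04, 0.988, 0 and 0 in cocaine libraries 1 to 6, against 3.92, 0, 1.10, 3.19, 13.2 and 1.85 in saline libraries 1 to 6. Saline 5 held the one value above 4 reads, and zeros occurred in both groups. In the authors' deposited table Cox8b had a log2 fold change of -2.21 with an unadjusted p of 0.0466 and an adjusted p of 1.00, and it was the one member under 0.05 before adjustment there.

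Outside complex IV the balance was less one-sided for ATP synthase. Atp5g1, Atp5g2 and Atp5g3 encode the same mature c subunit of the rotor, and Atp5g3 was highest, at 109 ± 18.7 FPKM in cocaine and 106 ± 20.01 FPKM in saline libraries. Atp5g2 averaged 41.6 ± 5.37 FPKM in cocaine and 41.2 ± 7.27 FPKM in saline libraries, and Atp5g1 averaged 23.9 ± 4.64 FPKM in cocaine and 22.6 ± 4.62 FPKM in saline libraries. Ndufa4, named for complex I but since found in complex IV, averaged 134 ± 24.2 FPKM in cocaine and 130 ± 25.3 FPKM in saline libraries. Its hypoxia-induced relative Ndufa4l2 averaged 2.92 ± 0.485 FPKM in cocaine and 2.86 ± 0.603 FPKM in saline libraries. By name, both genes count in complex I in every value given by complex here. In both families the order of the genes was the same in cocaine and saline libraries.

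**Figure D2:**
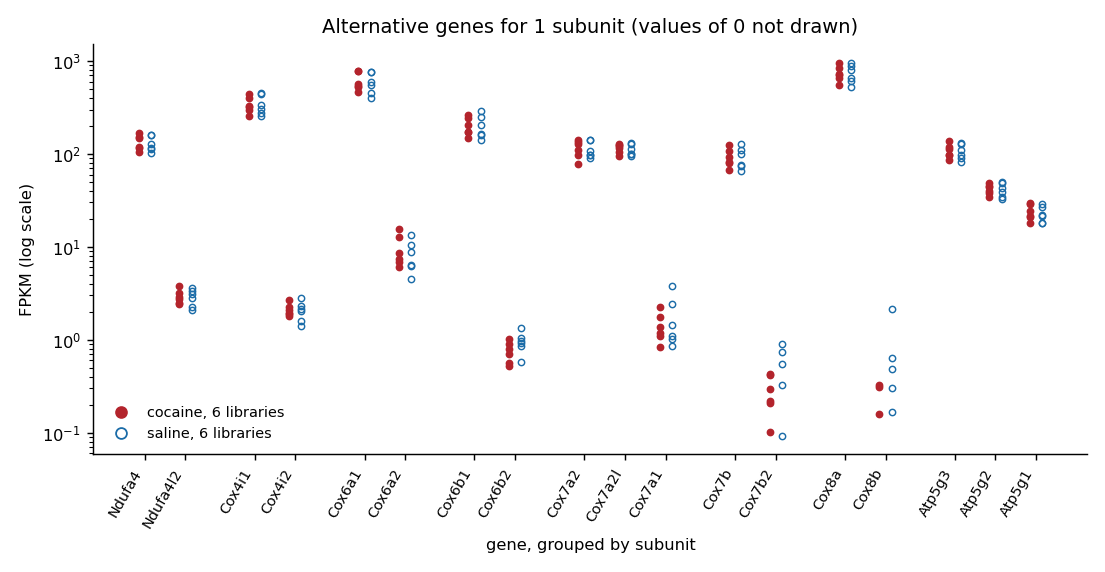
Level in FPKM (log axis) of genes that can supply the same subunit, grouped by subunit. Filled red points are the 6 cocaine libraries and open blue points the 6 saline libraries; values of 0 are not drawn, and the abundant and scarce genes of a complex IV subunit are separated in both groups, for example Cox8a at 739 FPKM and Cox8b at 0.375 FPKM on average.

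Adolescent cocaine exposure was set against saline for each member. None of the 80 tested members passed limma's test at an adjusted p of 0.05, where 0% of all 13016 genes tested were called. None had an unadjusted limma p under 0.05, where 149 of all genes did (1.14%), and in none did the 6 cocaine libraries lie apart from the 6 saline libraries, where 0.0768% of all genes did. The edgeR and DESeq2 tests on reads recovered from the table called 0 of 81 and 0 of 83 members after adjustment, beside 0% and 0.0104% of all genes. Before adjustment edgeR gave 0 members under 0.05, beside 1.58% of all its genes, and DESeq2 gave 1, Cox8b, beside 1.48%. The share of reads taken by all 83 members was 1.11 ± 0.154% in cocaine and 1.09 ± 0.175% in saline libraries (SD, n = 6 each).

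The differences of the tested members were small and mostly of 1 sign. On the log2 scale of normalised read count plus 1, 71 of the 80 had a cocaine mean above the saline mean, beside 53.7% of all genes. The median difference was 0.04, beside 0.01 over all genes. Cox6b2, Cox7b2 and Cox8b, below the level filter, lay the other way, at -0.32, -0.17 and -1.10. In DESeq2, which kept all 83 members, 66 lay above. The cocaine mean was above the saline mean in 34 of 37 members of complex I (median 0.05), 4 of 4 of complex II (0.05), 7 of 8 of complex III (0.04), 10 of 14 of complex IV (0.02) and 16 of 17 of complex V (0.04). The difference exceeded its standard error in 5 of 80 members, all with the cocaine mean above, where 9.23% of all genes did so in that direction and 7.15% in the other. The count of 71 rests on single libraries: it was 28 without cocaine 1, 37 without cocaine 5, 39 without saline 3 and 26 without saline 4, and reached 79 without cocaine 2, saline 5 or saline 6.

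**Figure D3:**
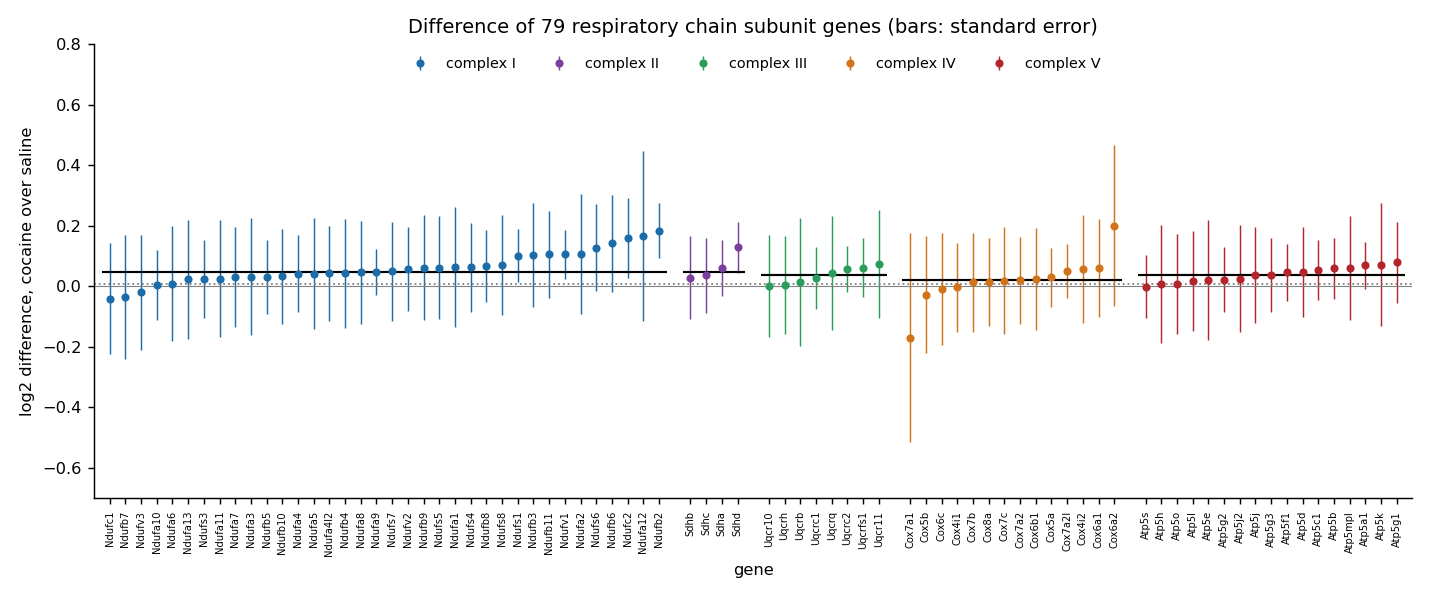
Difference between cocaine and saline means (log2, cocaine over saline) of 79 of the 80 tested subunit genes, ordered by size within each complex. Points are differences, vertical lines their standard errors, black bars the median of each complex and the dotted line the median of all genes (0.01); the bars of all but 5 genes reach 0.

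In complex I, the largest difference relative to its error was that of Ndufb2, an accessory subunit of the membrane arm. Its normalised read counts were 313, 300, 317, 325, 411 and 325 in cocaine libraries 1 to 6, against 272, 298, 290, 263, 312 and 313 in saline libraries 1 to 6. Cocaine 5 stood above all others, and cocaine 2 lay below saline 5 and saline 6, so the groups overlapped. The log2 difference was 0.18 ± 0.09 (SE), with a limma p of 0.0648 and an adjusted limma p of 1.00; the exact two-sided permutation test of this 1 gene gave p = 0.0108, not adjusted for the 80 members.

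The catalytic subunits of complex I differed by less. Ndufv1, which binds NADH and flavin, had a lowest, median and highest count of 2775, 2959 and 3294 in cocaine libraries, against 2517, 2772 and 3141 in saline libraries, a log2 difference of 0.11 ± 0.08 (exact permutation p = 0.182, not adjusted, as for the single members below). Ndufs1, the largest iron-sulfur subunit, had 1838, 2117 and 2412 in cocaine libraries, against 1721, 1957 and 2235 in saline libraries, a difference of 0.10 ± 0.09 (exact permutation p = 0.247). Both ranges overlapped over most of their width. The iron-sulfur carriers Ndufs7, Ndufs8 and Ndufv2 differed by 0.05 ± 0.16, 0.07 ± 0.17 and 0.06 ± 0.14. Ndufs3, which links these subunits, differed by 0.02 ± 0.13, and the accessory subunit Ndufc2 by 0.16 ± 0.13 (exact permutation p = 0.281). On the log2 scale, Ndufc1, Ndufb7 and Ndufv3 were the 3 members of the complex with a cocaine mean below the saline mean. The largest of these differences was -0.04.

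All 4 subunits of complex II, the succinate dehydrogenase of the citric acid cycle, had cocaine means slightly above saline means. Sdhd, a membrane anchor, had 1205, 1186, 1645, 1257, 1367 and 1270 reads in cocaine libraries 1 to 6, against 1163, 1285, 1229, 1232, 1096 and 1215 in saline libraries 1 to 6. Cocaine 3 was highest, all cocaine libraries but 3 and 5 lay within the saline range, and the difference was 0.13 ± 0.08 (exact permutation p = 0.119, adjusted limma p = 1.00). Sdha, the flavoprotein whose promoter is printed above, had a lowest, median and highest count of 6310, 7099 and 7741 in cocaine libraries, against 5504, 6940 and 7718 in saline libraries, a difference of 0.06 ± 0.09. The iron-sulfur subunit Sdhb and the other anchor Sdhc differed by 0.03 ± 0.14 and 0.04 ± 0.12.

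In complex III, no difference exceeded its standard error. The core proteins Uqcrc1 and Uqcrc2 differed by 0.03 ± 0.10 and 0.06 ± 0.08. Uqcrc2 had a lowest, median and highest count of 2676, 2943 and 3332 in cocaine libraries, against 2628, 2846 and 3132 in saline libraries, so the cocaine range covered most of the saline range. Uqcrfs1, the Rieske iron-sulfur protein that hands electrons towards cytochrome c, differed by 0.06 ± 0.10, and the small subunit Uqcr11 by 0.07 ± 0.18. Of the exon bases of Uqcrc2, 19.7% are shared with other annotation in GENCODE M21, the largest overlap being with Pdzd9. With no strand setting known for the counting, reads there cannot be told apart.

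Among the 80 tested members, complex IV held the extremes, in its scarce genes. Cox6a2 had 185, 74.6, 80.4, 102, 151 and 89.2 reads in cocaine libraries 1 to 6, against 103, 75.5, 80.2, 56.3, 121 and 154 in saline libraries 1 to 6, a difference of 0.20 ± 0.27 (exact permutation p = 0.519). Cox7a1 had 20.9, 8.06, 16.3, 12.9, 11.03 and 10.5 reads in cocaine libraries 1 to 6, against 22.6, 8.09, 9.88, 10.6, 34.4 and 12.9 in saline libraries 1 to 6, a difference of -0.17 ± 0.35 (exact permutation p = 0.643). Each group held both high and low libraries for these genes, and without saline 5 the difference of Cox7a1 was 0.07. More abundant members of the complex lay closer to 0. Cox8a differed by 0.01 ± 0.14, Cox6a1 by 0.06 ± 0.16 and Cox4i1 by -0.00 ± 0.15. Cox7a2l differed by 0.05 ± 0.09, Cox5b by -0.03 ± 0.19 and Cox5a by 0.03 ± 0.10.

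In complex V, the alpha subunit Atp5a1 and the beta subunit Atp5b were abundant. Their SDs within groups (log2) were 0.099 and 0.167, beside a median of 0.225 over all genes tested. Atp5a1 had 15230, 15974, 16328, 15785, 15117 and 15808 reads in cocaine libraries 1 to 6, against 14455, 16366, 16071, 15620, 12726 and 14915 in saline libraries 1 to 6. Atp5b had 17323, 19871, 19298, 18035, 16452 and 18415 reads in cocaine libraries, against 17043, 20030, 19587, 18575, 13314 and 17166 in saline libraries, in the same order. Saline 5 was the lowest library for both genes and saline 2 the highest, so the saline range enclosed the cocaine range. The differences were 0.07 ± 0.08 for Atp5a1 (exact permutation p = 0.271) and 0.06 ± 0.10 for Atp5b (exact permutation p = 0.630), and without saline 5 that of Atp5b was -0.02. The shaft subunits Atp5c1 (gamma) and Atp5d (delta) differed by 0.05 ± 0.10 and 0.05 ± 0.15, and the c subunit gene Atp5g1 by 0.08 ± 0.13.

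The members varied together from library to library, far more than the groups differed. In cocaine 1 and cocaine 5, 74 of 80 members lay above their own mean over the 12 libraries, as did 73 in saline 5 and 71 in saline 6. In cocaine 2, cocaine 4 and cocaine 6 only 6, 10 and 8 did, and in saline 2, saline 3 and saline 4 only 13, 5 and 6. Cocaine 3 and saline 1 stood between, with 40 and 31. Over all genes tested this share stayed between 46.8% and 52.8% in every library. The size factor that scales each library holds the typical gene near its own mean, so that evenness was set by the scaling. The mean deviation of the members was 0.35, -0.26, 0.01, -0.11, 0.26 and -0.12 (log2) in cocaine libraries 1 to 6, and -0.01, -0.14, -0.24, -0.33, 0.35 and 0.23 in saline libraries 1 to 6. The group means of 0.02 ± 0.24 in cocaine and -0.02 ± 0.27 in saline libraries (SD, n = 6 each) were thus far closer than the libraries within a group.

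In complexes I, III, IV and V alike, cocaine 1, cocaine 5, saline 5 and saline 6 were the 4 highest libraries and cocaine 2, saline 3 and saline 4 the 3 lowest, and complex II moved less. The highest library stood above the lowest 1.63-fold in complex I, 1.21-fold in complex II, 1.63-fold in complex III, 1.77-fold in complex IV and 1.54-fold in complex V. Over all genes tested the figure was 1.03-fold, which the scaling and the averaging over many genes hold low. The 82 tested genes of cytosolic ribosomal proteins, which share no role with the chain, deviated on average by 0.30, -0.29, 0.08, -0.03, 0.20 and -0.20 in cocaine libraries 1 to 6, and by 0.05, -0.20, -0.32, -0.36, 0.46 and 0.32 in saline libraries 1 to 6, high and low in the same libraries. The 7 myelinating oligodendrocyte markers ranged from -0.92 in cocaine 1 to 0.98 in cocaine 4, and from -1.62 in saline 4 to 1.23 in saline 1, so cocaine 1 was high for the subunits and low for these markers while saline 5 was high for both.

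Markers of 2 other sources also moved. The 4 red blood cell genes deviated by 0.44, 0.29, 0.71, -0.21, 0.46 and -0.09 in cocaine libraries 1 to 6, and by -0.21, -0.44, -0.59, -1.13, 0.94 and -0.18 in saline libraries 1 to 6. They were thus high in cocaine 1, cocaine 5 and saline 5 and low in saline 3 and saline 4, as the subunits were, but also high in cocaine 2 and below their mean in saline 6, as the subunits were not. All 4 had a cocaine mean above the saline mean (median 0.50), with summed counts of 1299.6 to 2488 in cocaine and 763 to 2682 in saline libraries. Hbb-bs, a beta globin gene, had an unadjusted limma p of 0.0454 and an adjusted limma p of 1.00. The 5 choroid plexus markers summed to 35.8 to 122 reads in cocaine and 65.5 to 11519 reads in saline libraries, and their one gene above the level filter, Ttr, had at most 13.2 reads in a cocaine library and 11208 in the highest saline library, saline 5. Over the 12 libraries the mean deviation ran from -0.16 to 0.18 for excitatory neuron markers, from -0.46 to 0.33 for astrocyte, from -0.08 to 0.20 for microglial, from -0.25 to 0.27 for endothelial and from -0.54 to 0.61 for striatal projection neuron markers. The part of these levels in the shared pattern was not tested.

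**Figure D4:**
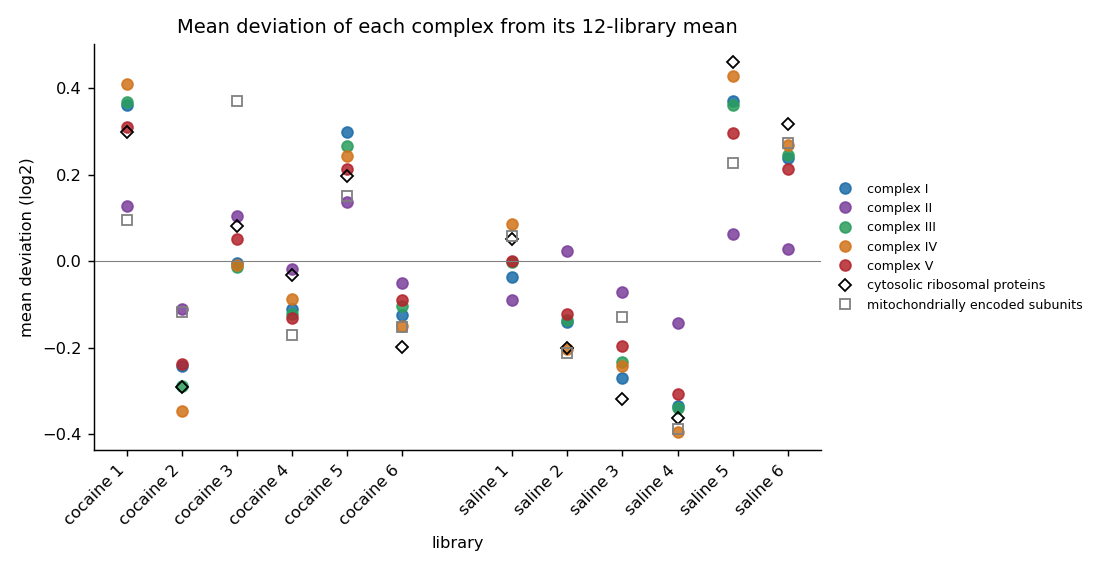
Mean deviation (log2) of each complex from its own mean over the 12 libraries, by library, cocaine left and saline right. Filled points are complexes I to V, open diamonds the cytosolic ribosomal protein genes and open squares the mitochondrially encoded subunits. In complexes I, III, IV and V, cocaine 1, cocaine 5, saline 5 and saline 6 are high and cocaine 2, saline 3 and saline 4 low. The mitochondrially encoded subunits are highest in cocaine 3 (0.37), stand at 0.10 in cocaine 1 and are lowest in saline 4 (-0.39).

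A group of 4 members often lay on the other side of their own mean from the rest: Atp5a1, Atp5b, Ndufs1 and Sdha. Only the sign was counted, and some of these deviations were small. Atp5a1 in cocaine 1, at 15230 reads, lay between its means of 15707 in cocaine and 15025 in saline libraries. In each of the 9 libraries in which at most 10 members lay on the less common side of their own mean, these 4 were among them. Sdha had 5504 reads in saline 5 and 6172 in saline 6, its 2 lowest values, while most members lay above their own mean there. These 4 encode subunits of complexes V, I and II, and they have the longest coding sequences of the set. No other member was on that side in more than 5 of the 9 libraries, the next being Sdhd.

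Members with longer coding sequences spread less between libraries. The SD within groups (log2) had a median of 0.306 over the 80 members, against 0.225 over all genes tested, and 60 of the 80 lay above the median of all genes. By complex the median SD was 0.315 in I, 0.192 in II, 0.321 in III, 0.317 in IV and 0.286 in V. Cox7a1 had the largest, 0.621. The 37 members with a coding length under 400 bases had a median SD of 0.333, the 22 of 400 to 600 bases 0.275, the 10 of 600 to 1000 bases 0.250 and the 11 of 1000 bases or more 0.145. All protein-coding genes of these classes had medians of 0.290, 0.240, 0.209 and 0.207.

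Across the 80 members, which are not independent replicates and share the libraries, SD and log2 coding length had a Pearson correlation of -0.599 and a Spearman correlation of -0.588. Across all 11613 protein-coding genes tested the correlations were -0.0250 and -0.00848. Their median coding length was 1395 bases, against 417 in the members, and 7938 of them had 1000 bases or more. In that larger set the median SD was also highest under 400 bases (0.290) and lowest at 1000 bases or more (0.207). SD and mean log2 normalised read count, which is not scaled to length, had a Spearman correlation of -0.39 across the members. Across all protein-coding genes tested it was -0.27. In cocaine 1 the mean deviation was 0.45 for the members under 400 bases and 0.13 for those of 1000 bases or more, and in saline 5 it was 0.44 and -0.01. Members under 400 bases lay above their own mean in 37 of 37 cases in cocaine 1 and in 0 of 37 in saline 3. Whether length, read count or another property carries this relation was not tested.

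**Figure D5:**
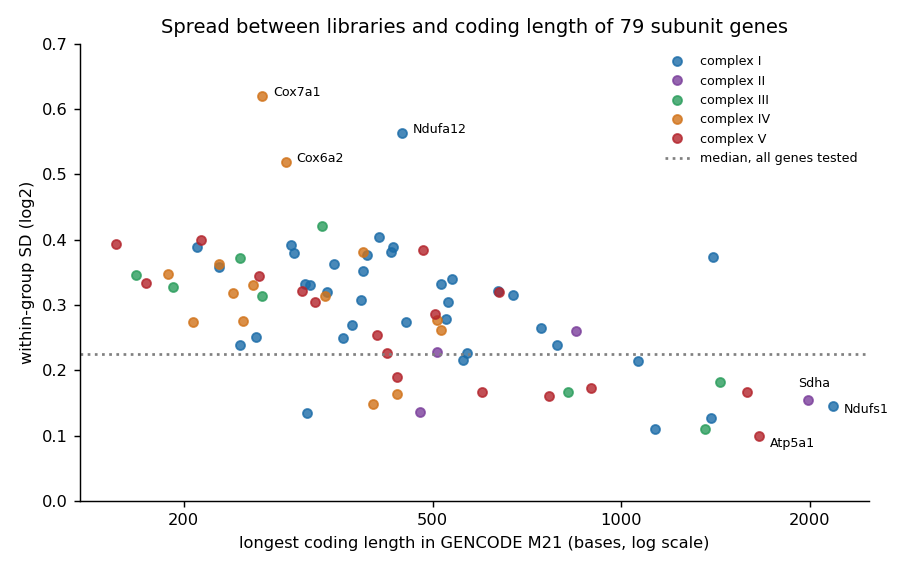
SD of log2 normalised read count within groups against the longest coding length in GENCODE M21 (log axis, bases) for 79 of the 80 tested subunit genes. Points are genes coloured by complex and the dotted line is the median of all genes (0.225); genes of 1000 bases or more have a median of 0.145 and those under 400 bases 0.333.

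The labels carry a time tag, day 0 for odd and day 5 for even replicate numbers, whose meaning they do not give. The sign of the median difference was opposite between the tags. Among the 3 cocaine and 3 saline libraries tagged day 0, 77 of 80 members had a cocaine mean above the saline mean, with a median of 0.17, beside 52.3% of all genes. Among the 3 and 3 tagged day 5, 11 of 80 did, with a median of -0.10, beside 54.7% of all genes. In every complex the median was above 0 at day 0 and below 0 at day 5, from 0.19 and -0.10 in complex I to 0.14 and -0.03 in complex II. The interaction of treatment with the tag in limma passed at an adjusted p of 0.05 for 0 members and 0 of all genes; at an unadjusted limma p under 0.05 there were 2 of 80 members, beside 3.58% of all genes. A dependence on the tag was thus not shown by the test. These splits hold 3 libraries per group and were made after the data had been seen. The members share those libraries, so the counts of 77 and 11 are not counts of independent results.

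Other genes of the pathway did not pass the limma test either. Of the 13 mitochondrially encoded subunits 5 had a cocaine mean above and 8 below the saline mean (median -0.02), from -0.22 for mt-Nd3 to 0.86 for mt-Atp8, which had 18.5 ± 12.5 reads in cocaine and 9.01 ± 5.00 reads in saline libraries. The cytochrome c gene Cycs differed by 0.08, the complex III subunit Cyc1 by 0.05 and the acyl carrier Ndufab1 by -0.08. Among 38 tested assembly factors 25 lay above and 13 below (median 0.03), and the ATP synthase inhibitor Atpif1 differed by 0.03. Of 12 regulators of mitochondrial gene expression 5 lay above and 7 below (median -0.00), among them the coactivator Ppargc1a at 0.02, Nrf1 at -0.08, Gabpa at 0.03 and the mitochondrial DNA factor Tfam at 0.02. Of 11 citric acid cycle enzymes 9 lay above and 2 below (median 0.04), and of the 82 ribosomal protein genes 54 lay above and 28 below (median 0.02).

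Reads of some members may belong in part to other genes. In GENCODE M21, 29 of the 83 members share exon bases with another gene, 11 of them over 10% of their own. The highest shares, over all overlapping genes, were 47.9% in Atp5o, 39.0% in Ndufb6 and 30.0% in Ndufa13. Their largest overlaps were with Gm15976, Smim27 and Tssk6, in that order. The table also lists 9 genes with matching names that are not protein coding: 8 processed pseudogenes with means of 0.257 to 24.7 reads and the RNA gene Ndufb1-ps with 516. Short subunit genes have many near-identical pseudogene copies, and how reads shared between copies were counted is not given in the sources used here.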

How the data were processed

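RNA was sequenced from 12 prefrontal cortex libraries, grouped as cocaine or saline by their treatment label. The authors deposited 1 table: per the file headers, its columns are the libraries' values, gene length, log2 fold change and p-value (raw and adjusted). The deposited values are a signal, reads scaled by a size factor and not by length: dividing a library's values by what 1 read is worth gave whole numbers for 100% of genes (tolerance 0.01 read). For cocaine 1 and cocaine 2 that worth, 0.994 and 1.01, is too close to 1 to test recovery by its step alone, so count tests served as alternatives and edgeR was repeated without both. Libraries held 16.7 to 19.9 M recovered reads; a gene at 0 is limited to about 3 reads, counting error only. HISAT2 2.0.5 and hg38 are named per the submitters' processing notes; the gene IDs are mouse IDs, and 28041 of 28842 had the same start and end in GENCODE M21 (GRCm38), whose coordinates and coding lengths were used. The read counter's strand setting is not given in the sources used here.

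The test was limma 3.58.1 in R 4.3.3 on log2(value + 1), empirical Bayes with a variance trend, two-sided, no covariates, over the 13016 genes whose mean FPKM was 1 or more, with Benjamini-Hochberg adjustment over all of them (threshold 0.05). FPKM was computed from the value, gene length and column sum. Log2 differences are cocaine over saline and understate the change of low genes; errors are standard errors unless SD is named. Single members were also tested by the exact two-sided permutation test (924 assignments of 12 libraries; smallest p 0.00216). The limma test was tested on simulated data. Members are described by counts and medians, with no test over the list. Named members were the catalytic and redox subunits, genes for alternative forms of 1 subunit, the 3 smallest limma p-values per complex, and the extremes of level and spread; Ndufa12, the genes of the overlap and promoter paragraphs, and the members below 0 in complex I were named after their values were seen. The values of 1 member, which counts in every total, are not reported here. The members and lists were chosen with earlier results of these data known. Alternatives covered the pseudocount, filter, scaling, variance model, library weights, covariates, each library left out, edgeR 4.0.16 and DESeq2 1.42.0.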

Additional observations from a re-analysis of the deposited data

Results flagged for a closer look

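Among 168 sets of 6 libraries checked (79 of the 80 tested members in each group, and each complex), 3 held a library standing apart from the other 5 by more than Dixon's 95% limit, where chance gives about 1 in 20 sets. Ndufb2 had 410.9 reads in cocaine 5, the nearest other cocaine library having 325.4. Ndufa12, an accessory complex I subunit, had 1214 reads in cocaine 5 against a nearest cocaine value of 666.7, and 965.4 reads in saline 5 against a nearest saline value of 569.1, so both groups held 1 high library for this gene. Their causes were not tested.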

How the results depend on the processing

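No alternative called a member, and the direction of the median difference of each complex was above 0 under TMM, upper-quartile and equal-sum scaling; leaving out 1 library took it as low as -0.06 (complex IV) and as high as 0.14 (complex I). DESeq2 called 3 of all genes, none of them a member. The number of members with a cocaine mean above the saline mean, 71, ranged from 26 to 79 when 1 library was left out, was 45 with edgeR without cocaine 1 and cocaine 2, and was 77 among libraries tagged day 0 and 11 among those tagged day 5, where the median of complex II was 0.14 and -0.03. With the ribosomal protein score as a covariate, chosen after seeing the data, it was 60. With library weights the difference of Atp5b was -0.0151 and the difference of Uqcrc2 was -0.000726. Leaving out 1 library moved Atp5b between -0.0192 and 0.0986, Cox7a1 between -0.323 and 0.0695, Sdhc between -0.0272 and 0.113 and Uqcr11 between -0.0196 and 0.154. The causes were not tested. Replicate numbers did not pair the samples (correlations of same-numbered libraries from -0.399 to 0.435); the replicate block gave 0 called genes and 71 members above. The number of all genes at an unadjusted limma p under 0.05 was 149; it was lowest at 49 with a minimum mean FPKM of 5 and highest at 860 in edgeR without a count filter. With edgeR without cocaine 1 and cocaine 2 the median difference of complex III was -0.02 and the median difference of complex IV was -0.03; edgeR without a count filter also gave -0.01 for complex IV. At 6 libraries per group the differences of all but 5 members lay within their standard errors. The size of difference that the test could detect is not given here, so small differences may have been missed.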
